A study of Homo sapiens with 12 samples.

Results

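The 10 genes described here are 9 aldehyde dehydrogenases (ALDH1A1, ALDH1A2, ALDH1A3, ALDH1B1, ALDH2, ALDH3A1, ALDH3A2, ALDH3B1 and ALDH7A1) and the cell surface receptor CD44. They were chosen by name and read from a table of gene counts with 61044 IDs, in which each of the 10 was found by its Ensembl ID. Of the 10, 9 were among the 17532 genes that passed a filter on low counts, and ALDH1A2 did not. The RNA came from SCC-15, an established line of oral squamous carcinoma cells, in which FMOD, the gene of the matrix proteoglycan fibromodulin, was targeted by RNA interference. The 4 groups were cells with a negative-control short hairpin RNA (NC) and cells with 1 of 3 short hairpin RNAs against FMOD, called shRNA1, shRNA2 and shRNA3. All were harvested after 48 hours, and each group had 3 libraries (n = 3), numbered 1 to 3. The hairpin sequences, and whether each group is a clone or a pool of cells, are not given in the sources used here. Nothing in the labels says that libraries of a group came from separate cultures, so p-values measure the spread between these libraries, which may be technical.

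Aldehyde dehydrogenases oxidise aldehydes to carboxylic acids with a nicotinamide cofactor. ALDH1A1, ALDH1A2 and ALDH1A3 are the cytosolic enzymes that turn retinaldehyde into retinoic acid, the ligand of nuclear retinoic acid receptors, while other members clear acetaldehyde, fatty aldehydes or aldehydes from lipid peroxidation, or serve amino acid breakdown. CD44 is a transmembrane glycoprotein that binds hyaluronan in the extracellular matrix. In oral and other squamous carcinomas, high aldehyde dehydrogenase activity and high CD44 at the cell surface are widely used to sort cells with stem-like behaviour. Neither the activity nor the surface protein was measured here, and counts per gene do not separate the splice isoforms of CD44.

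FMOD itself had 2, 2 and 3 counts in the NC libraries and 0 in all 9 shRNA libraries. The mean of log2(CPM + 1), where CPM is the usual count scaled for library depth, was lower in the shRNA libraries (difference -0.16) by an exact two-sided permutation test (p = 0.004545, the smallest that 220 splits allow), and no fold change is given because all groups were at or under 3 counts. That test pools the hairpins. By edgeR's quasi-likelihood test with no filter on low counts, FMOD was called with no single hairpin (adjusted p = 0.0917, 0.113 and 0.123 with shRNA1, shRNA2 and shRNA3). Library totals ranged from 17286934 to 19567192 counts. The NC libraries stood apart from all others: over the tested genes, Pearson correlations of log2 CPM were 0.751 to 0.772 between NC and shRNA libraries and 0.893 to 0.978 between libraries of different hairpins. shRNA3 libraries 1 and 2 stood apart from shRNA3 library 3, with correlations of 0.907 and 0.903 to it and 0.982 between themselves, and their scaling factors of 0.771 and 0.795 lay below the 0.979 to 1.11 of the other libraries. The fitted shRNA3 values below are therefore also given without libraries 1 and 2. That fit keeps library 3 as the only shRNA3 library, so a test of shRNA3 in it takes its spread from the other groups alone. For shRNA3 only effect sizes are given from it, though it is counted among the alternative fits below. All 12 squamous epithelial markers checked had more than 3 counts in a library of every group, with summed levels of 2681 to 2853 CPM in NC and 2074 to 3377 CPM in the shRNA groups. Within that list 4 genes rose and 3 fell with shRNA1, 5 and 4 with shRNA2, and 7 and 4 with shRNA3. Of all tested genes, 26.8%, 24.6% and 26.4% rose and 30.6%, 28.4% and 27.6% fell with shRNA1, shRNA2 and shRNA3. KRT14, KRT6A, KRT17 and PERP rose and KRT5, CDH1 and PKP1 fell with all 3 hairpins, as named after their values were seen. KRT14, the partner of KRT5 in basal cells, went from 7.57 ± 1.73 CPM in NC to 55.5, 24.5 and 149 CPM in the hairpin groups. KRT5, the basal epithelial keratin, was 1007 ± 42.4 CPM (SD) in NC and 21.4 to 80.1 CPM on average in the hairpin groups, and the adhesion gene CDH1 was 322 ± 12.7 CPM against 38.2 to 66.0 CPM. Of 8 fibroblast markers, 4 passed 3 counts in a library of NC and DCN and THY1 were at 0 there; their summed level was 56.8 to 59.7 CPM in NC, 15.6 to 21.7 with shRNA1, 44.2 to 48.2 with shRNA2 and 33.1 to 86.6 with shRNA3. Of 6 leukocyte markers, 4 passed 3 counts in a library of NC and PTPRC was at 0 there, and the summed level, mostly of CD68 (63.1 ± 9.15 CPM in NC) with CD14 next (4.17 ± 0.616 CPM), was 58.7 to 76.2 CPM in NC and 44.5 to 236 CPM in the shRNA groups. Of 4 endothelial markers, 3 passed 3 counts in a library of every group, with sums of 17.6 to 23.1 CPM in NC and 3.88 to 13.2 CPM with the hairpins. Of 4 glial or neuronal markers, 3 did so in NC, with sums of 21.8 to 23.8 CPM against 0.585 to 2.37 CPM with the hairpins. Of 4 fibroblast markers that were tested, 0 rose, and 4, 3 and 3 fell with shRNA1, shRNA2 and shRNA3. For 2 tested leukocyte markers, 1 fell with each hairpin and 1 rose with shRNA3. For 3 tested endothelial markers, 1 rose and 2 fell with each hairpin. For 2 tested glial or neuronal markers, 0 rose, and 1, 2 and 1 fell. The part of these markers in the results below was not tested.

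Start-site sequences are shown for the 2 genes that were lower with all 3 hairpins, ALDH1A1 and CD44, and for ALDH1A3, the dehydrogenase with the highest mean CPM. Of the 10 genes, 8 had an entry in the RefSeq promoter table (GRCh38.p14), and ALDH2 and ALDH3A1 had none. Each window holds 250 bases before and 50 bases after the RefSeq start, 5′ to 3′ on the strand of the gene, and capitals mark the motifs searched on both strands. These were TATAAA (in 11.5% of all 35116 promoters of the table), CCAAT (34.6%), GGGCGG (44.95%), TGANTCA (7.71%), TGACNNNGC (13.4%) and CACGTG (7.26%).
ALDH1A1, chr9:72953004-72953303, minus strand: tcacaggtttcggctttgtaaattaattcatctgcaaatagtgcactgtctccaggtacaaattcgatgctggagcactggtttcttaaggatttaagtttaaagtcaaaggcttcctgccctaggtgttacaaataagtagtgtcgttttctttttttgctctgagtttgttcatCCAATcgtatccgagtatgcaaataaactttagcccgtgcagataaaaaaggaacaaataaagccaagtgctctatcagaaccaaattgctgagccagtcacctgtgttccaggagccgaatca
CD44, chr11:35138921-35139220, plus strand: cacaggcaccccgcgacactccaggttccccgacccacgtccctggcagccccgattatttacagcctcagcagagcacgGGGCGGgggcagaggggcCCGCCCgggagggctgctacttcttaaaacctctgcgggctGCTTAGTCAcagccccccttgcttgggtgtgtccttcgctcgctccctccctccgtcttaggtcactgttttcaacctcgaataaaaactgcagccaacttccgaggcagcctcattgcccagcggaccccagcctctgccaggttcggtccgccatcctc
ALDH1A3, chr15:100879581-100879880, plus strand: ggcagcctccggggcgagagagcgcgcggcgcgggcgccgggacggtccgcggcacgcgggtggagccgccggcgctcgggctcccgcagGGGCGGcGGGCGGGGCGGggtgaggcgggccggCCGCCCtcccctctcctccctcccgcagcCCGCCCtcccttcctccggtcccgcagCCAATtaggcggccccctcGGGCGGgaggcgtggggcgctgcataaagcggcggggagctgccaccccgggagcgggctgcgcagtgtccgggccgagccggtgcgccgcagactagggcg
The ALDH1A1 window is 40.3% G and C, against a median of 58.7% over the table, and holds 1 CCAAT and none of the other motifs. The CD44 window (63.3%) holds 2 GGGCGG and 1 TGACNNNGC, which is the core of the antioxidant response element and lies here on the opposite strand. The ALDH1A3 window (81.7%) holds 6 GGGCGG, 2 of which share a base, and 1 CCAAT. The RefSeq starts lie inside the longer gene spans given below. A match is only a match of letters in the reference.

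Of the 9 tested genes, 5 were called with shRNA1 against NC (57.4% of all tested genes were called), 4 with shRNA2 (53%) and 6 with shRNA3 (53.9%), by edgeR's quasi-likelihood test at an adjusted p under 0.05. By direction, shRNA1 had 2 of them higher (26.8% of all genes) and 3 lower (30.6%), shRNA2 had 2 higher (24.6%) and 2 lower (28.4%), and shRNA3 had 4 higher (26.4%) and 2 lower (27.6%). With so few genes these shares say little: the widest gap was 4 of 9 higher with shRNA3. Absolute log2 fold changes of the 9 genes had a median of 0.486 with shRNA1, 0.384 with shRNA2 and 0.65 with shRNA3, smaller than the 0.924, 0.853 and 0.868 of all tested genes. ALDH3A1 was the only one of the 10 called higher with all 3 hairpins and without overlap between NC and shRNA libraries (15.5% of all genes), and ALDH1A1 and CD44 were the only ones called lower in this way (19.6%). The 3 comparisons share the NC libraries, so their directions are not independent of each other. Of all called genes, 46.7%, 46.4% and 48.9% were higher with shRNA1, shRNA2 and shRNA3, and with library totals alone in place of TMM scaling 40.9%, 38.5% and 35.1% were, since that scaling shifted the median log2 fold change of all genes by -0.09, -0.13 and -0.32. Under totals alone the genes described numbered 2 higher and 3 lower with shRNA1, 2 and 2 with shRNA2, and 2 and 2 with shRNA3, while 54%, 50.6% and 52.2% of all genes were called. In the fit without shRNA3 libraries 1 and 2, ALDH1A2 also passed the filter. Numbers of called genes are not given from that fit, because library 3 is its only shRNA3 library. Without shRNA3 library 3 instead, 8, 8 and 9 of 9 were called, while 73.1%, 70.2% and 73.1% of all genes were.

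**Figure D1:**
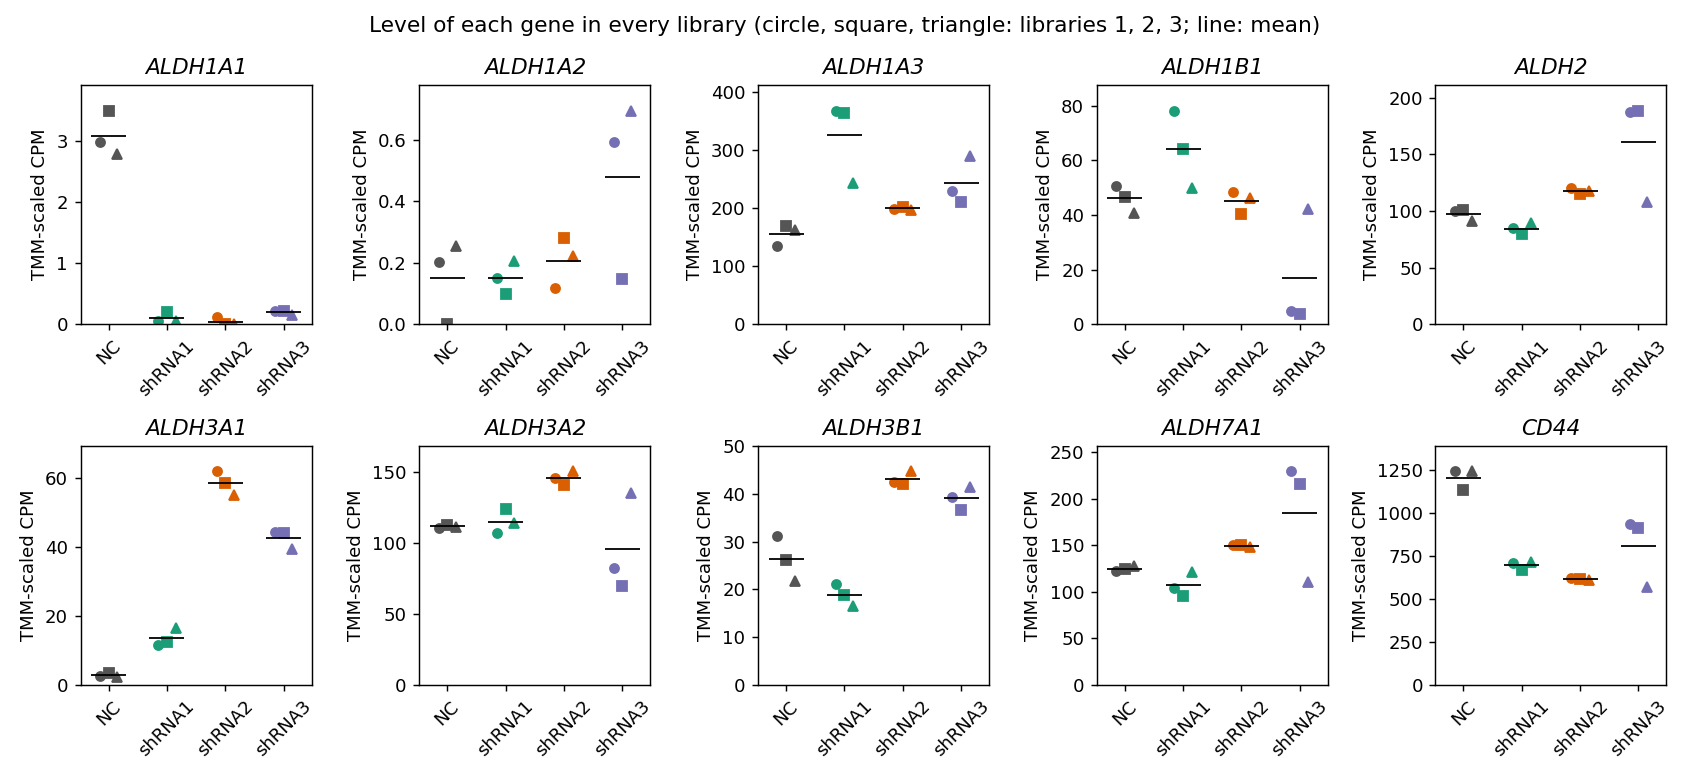
Level of each of the 10 genes in every library, in TMM-scaled CPM (vertical axes, each starting at 0), by group (horizontal axes); circles, squares and triangles are libraries 1, 2 and 3 and lines are group means. All 9 shRNA libraries lie below NC for ALDH1A1 and CD44 and above NC for ALDH3A1 and, under TMM but not under totals alone, for ALDH1A3. Under TMM, shRNA3 libraries 1 and 2 lie away from library 3 for ALDH1A3, ALDH1B1, ALDH2, ALDH3A2, ALDH7A1 and CD44.

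**Figure D2:**
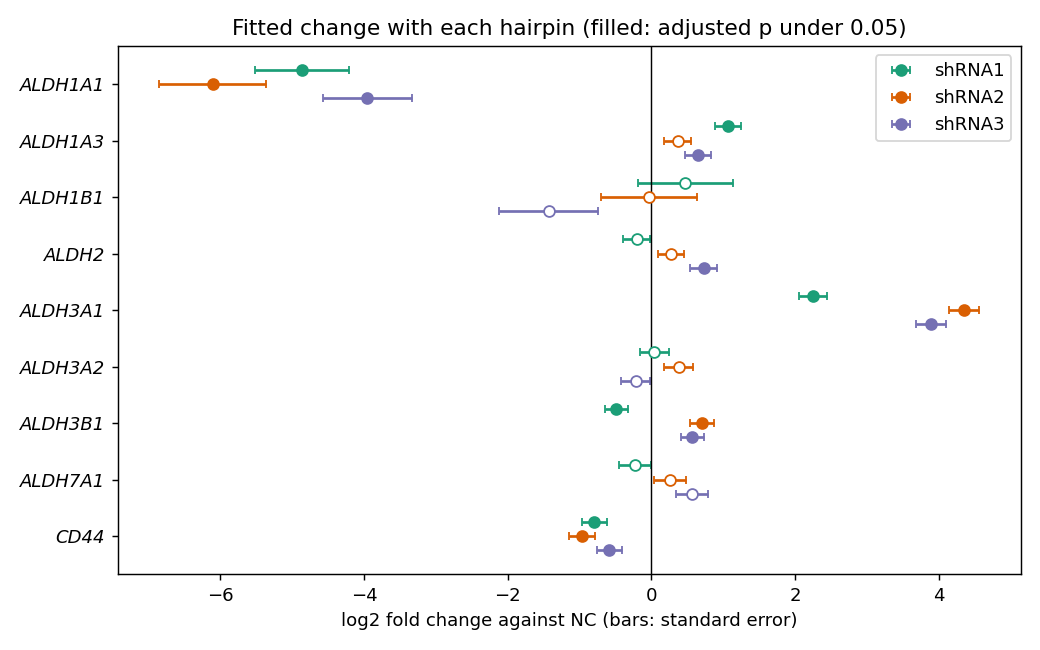
Fitted log2 fold change of the 9 tested genes against NC (horizontal axis) with each hairpin (colours), with bars of 1 standard error; filled points have an adjusted p under 0.05. ALDH1A1 lies at -4.87, -6.11 and -3.95 and ALDH3A1 at 2.26, 4.36 and 3.90, while the other genes lie between -1.43 and 1.07.

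Among the retinaldehyde dehydrogenases, ALDH1A1 was nearly lost, ALDH1A3 rose with shRNA1 and shRNA3, and ALDH1A2 had few counts in every group. ALDH1A1 (ENSG00000165092, chromosome 9, 72900662 to 73080442, minus strand, GRCh38, GENCODE release 29) overlaps only the pseudogene CYP1D1P, on the opposite strand. Its counts were 59, 71 and 55 in NC libraries 1 to 3, or 2.98, 3.49 and 2.79 CPM. With shRNA1 they were 1, 4 and 1, with shRNA2 2, 0 and 0, and with shRNA3 3 in each library. Every shRNA library was at or under 0.222 CPM and far below every NC library. Summed counts per scaled library size were 31.0 times higher in NC than with shRNA1 (exact 95% interval 14.0 to 85.5), 81.7 times higher than with shRNA2 (22.3 to 679.6) and 16.3 times higher than with shRNA3 (8.38 to 36.1), intervals that cover counting error only. ALDH1A1 passed the filter on low counts only through NC, the group where it is high, so its passing the tests is no separate support. The fitted log2 fold changes were -4.87 ± 0.65 (SE, adjusted p = 8.2e-05), -6.11 ± 0.75 (adjusted p = 4.5e-05) and -3.95 ± 0.62 (adjusted p = 0.000273). They were called in each of the 19 alternative fits run, and without shRNA3 libraries 1 and 2 the shRNA3 value was -4.29. Fewer cells with ALDH1A1 RNA and less of it per cell cannot be told apart in bulk libraries, here or for any gene below.

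ALDH1A3 (ENSG00000184254, chromosome 15, 100877714 to 100916626, plus strand) had the highest mean level per kilobase of exon among the 9 dehydrogenases in every group. Its level was 135, 169 and 162 CPM in NC, 368, 365 and 243 CPM with shRNA1, 199, 203 and 198 CPM with shRNA2, and 229, 211 and 290.5 CPM with shRNA3. Under TMM all 9 hairpin libraries were above the highest NC library, and the shRNA1 and shRNA3 ranges overlapped. With totals alone shRNA3 libraries 1 and 2 (177 and 167 CPM) were below NC library 2 (187 CPM). ALDH1A3 rose 2.10-fold with shRNA1 (log2 1.07 ± 0.18, adjusted p = 0.000472) and 1.57-fold with shRNA3 (0.65 ± 0.18, adjusted p = 0.0104), while the shRNA2 value of 0.37 ± 0.18 did not pass (adjusted p = 0.112). The shRNA3 value was 0.93 without libraries 1 and 2. It missed the threshold without NC library 1 (0.56, adjusted p = 0.051) and with library totals alone (0.34, adjusted p = 0.243). The shRNA2 value passed in 4 of 19 alternatives, among them the fit of the 6 NC and shRNA2 libraries alone (0.37, adjusted p = 0.000248). The gene overlaps 2 annotated genes on the opposite strand and 1 on its own, and use of strand in the counting is not given in the sources used here, so reads of such neighbours may be included.

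ALDH1A2 (ENSG00000128918, chromosome 15, 57953424 to 58497866, minus strand), the retinaldehyde dehydrogenase best known from the embryo, had 4, 0 and 5 counts in NC, 3, 2 and 4 with shRNA1, 2, 5 and 4 with shRNA2, and 8, 2 and 14 with shRNA3. Of the 12 libraries, the 2 highest were shRNA3 libraries 1 and 3, and the ranges of all groups overlapped. The 9 shRNA libraries and the 3 NC libraries differed by 0.14 in mean log2(CPM + 1) (exact two-sided permutation test, p = 0.3636). In a fit with no filter on low counts, the adjusted p was 1, 0.774 and 0.194 for the 3 hairpins against NC. Summed over libraries, 9 counts in NC stood against 24 with shRNA3, an NC to shRNA3 ratio of 0.297 (exact 95% interval 0.121 to 0.661 for counting error alone), but the shRNA3 libraries ranged from 2 to 14 counts. In the fit without shRNA3 libraries 1 and 2, where ALDH1A2 passed the filter, the shRNA3 value was 2.18, from the 14 counts of library 3. The span of ALDH1A2 holds 11 annotated genes on the opposite strand, among them AQP9 and LIPC.

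Of the 3 ALDH3 enzymes, ALDH3A1 rose strongly with every hairpin, ALDH3B1 rose with 2 hairpins and was lower with shRNA1, and ALDH3A2 passed with none in the fit of all libraries. ALDH3A1 (ENSG00000108602, chromosome 17, 19737984 to 19748943, minus strand) oxidises aldehydes of lipid peroxidation and is abundant in the cornea. It had 2.72, 3.49 and 2.33 CPM in NC, 11.7, 12.6 and 16.7 CPM with shRNA1, 62.1, 58.8 and 55.3 CPM with shRNA2, and 44.3, 44.0 and 39.5 CPM with shRNA3. No 2 of the 4 groups overlapped, and the order from low to high was NC, shRNA1, shRNA3 and shRNA2. The rise was 4.78-fold (log2 2.26 ± 0.20, adjusted p = 3.47e-06), 20.5-fold (4.36 ± 0.21, adjusted p = 8.21e-08) and 14.9-fold (3.90 ± 0.21, adjusted p = 1.38e-07) with shRNA1, shRNA2 and shRNA3. Each of these was called in all 19 alternatives, and the shRNA3 value was 3.82 without libraries 1 and 2. The neighbouring gene AC005722.3 overlaps ALDH3A1 on the opposite strand.

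ALDH3B1 (ENSG00000006534, chromosome 11, 68008578 to 68029282, plus strand), which acts on medium- and long-chain aldehydes at membranes, had 31.2, 26.1 and 21.8 CPM in NC. Levels were 21.1, 18.9 and 16.5 CPM with shRNA1, 42.4, 42.0 and 44.7 CPM with shRNA2, and 39.3, 36.6 and 41.5 CPM with shRNA3. The shRNA1 libraries were all below NC by a narrow margin and the other 6 hairpin libraries all above it, except that with totals alone the shRNA3 range overlapped NC. ALDH3B1 rose 1.63-fold with shRNA2 (log2 0.71 ± 0.16, adjusted p = 0.00317) and 1.49-fold with shRNA3 (0.57 ± 0.16, adjusted p = 0.0107), and was 1.40-fold lower with shRNA1 (-0.49 ± 0.16, adjusted p = 0.0229). The shRNA2 call held in all 19 alternatives and the shRNA1 call in 14; the latter was lost without a filter (-0.46, adjusted p = 0.1) and without NC library 1 (-0.34, adjusted p = 0.12) or 2 (-0.49, adjusted p = 0.0546) or shRNA1 library 2 (-0.48, adjusted p = 0.0636) or 3 (-0.39, adjusted p = 0.0744). The shRNA3 value was 0.68 without libraries 1 and 2. Its call was lost with totals alone (0.25, adjusted p = 0.329) and without NC library 3 (0.44, adjusted p = 0.0575).

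ALDH3A2 (ENSG00000072210, chromosome 17, 19648136 to 19677598, plus strand), the fatty aldehyde dehydrogenase of the endoplasmic reticulum, had 110.5, 113 and 112 CPM in NC, 107, 124 and 114 CPM with shRNA1, and 146, 141 and 150.5 CPM with shRNA2. With shRNA3 it had 82.5 and 69.9 CPM in libraries 1 and 2 but 135 CPM in library 3. The shRNA1 range held the NC range, the shRNA2 libraries were above it, and the shRNA3 libraries lay on both sides. The log2 values of 0.04 ± 0.20, 0.38 ± 0.20 and -0.22 ± 0.20 did not pass (adjusted p = 0.876, 0.13 and 0.381). The shRNA2 value passed in 3 of 19 alternatives, the 6 libraries alone (0.39, adjusted p = 1.35e-05), without shRNA3 library 3 (0.39, adjusted p = 0.000904) and without libraries 1 and 2 (0.40, adjusted p = 0.000755). The shRNA3 value turned to 0.31 without libraries 1 and 2 and was -0.56 without library 3 (adjusted p = 0.000152).

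The mitochondrial enzymes ALDH2 and ALDH1B1 and the lysine-pathway enzyme ALDH7A1 shared 1 feature: their shRNA3 values depended on which shRNA3 libraries were used. The fit has 1 dispersion estimate per gene for all 4 groups. The spread among shRNA3 libraries therefore also enters the standard errors of the shRNA1 and shRNA2 values, here and for ALDH3A2. ALDH2 (ENSG00000111275, chromosome 12, 111766887 to 111817529, plus strand), the main acetaldehyde dehydrogenase, had 100.1, 101 and 91.0 CPM in NC, 85.2, 79.4 and 89.0 CPM with shRNA1, 120.5, 115 and 117 CPM with shRNA2, and 187, 189 and 108 CPM with shRNA3. No hairpin group overlapped NC: shRNA1 lay below it and the others above. ALDH2 rose 1.66-fold with shRNA3 (log2 0.73 ± 0.19, adjusted p = 0.00611), but without libraries 1 and 2 the value was 0.18. The values of -0.20 ± 0.18 with shRNA1 and 0.27 ± 0.18 with shRNA2 did not pass (adjusted p = 0.366 and 0.233). The shRNA1 value passed without shRNA3 library 3 (-0.20, adjusted p = 0.0387). The shRNA2 value passed in the 6 libraries alone (0.28, adjusted p = 0.000745), without shRNA3 library 3 (0.28, adjusted p = 0.00527) and without libraries 1 and 2 (0.29, adjusted p = 0.00718).

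ALDH1B1 (ENSG00000137124, chromosome 9, 38392664 to 38398661, plus strand), which overlaps no annotated gene, had 50.7, 46.7 and 40.9 CPM in NC, 78.3, 64.2 and 49.9 CPM with shRNA1, and 48.5, 40.5 and 46.2 CPM with shRNA2. With shRNA3 it had 5.04 and 3.64 CPM in libraries 1 and 2, from 68 and 50 counts, and 42.1 CPM in library 3, from 848 counts. Libraries 1 and 2 of shRNA3 were thus far below the other 10 libraries, while library 3 was inside the NC range (just below it with totals alone). None of the values 0.47 ± 0.67, -0.03 ± 0.67 and -1.43 ± 0.68 passed (adjusted p = 0.566, 0.97 and 0.0974). The shRNA1 value passed in the 6 libraries alone (0.47, adjusted p = 0.0238), without shRNA3 library 3 (0.48, adjusted p = 0.0099) and without libraries 1 and 2 (0.49, adjusted p = 0.00942). For shRNA3 the value was -0.10 without libraries 1 and 2, -3.41 without library 3 (adjusted p = 5.03e-09) and -1.47 by DESeq2 (adjusted p = 0.0474).

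ALDH7A1 (ENSG00000164904, chromosome 5, 126531200 to 126595418, minus strand), also called antiquitin, had 122, 124 and 128 CPM in NC, 104, 95.5 and 121 CPM with shRNA1, 150.1, 149.7 and 148 CPM with shRNA2, and 229, 216 and 110.0 CPM with shRNA3. All shRNA1 libraries were below NC and all shRNA2 libraries above it, and the shRNA3 libraries were on both sides. The values -0.22 ± 0.22, 0.26 ± 0.22 and 0.57 ± 0.22 did not pass (adjusted p = 0.414, 0.354 and 0.0503). The shRNA1 value passed without shRNA3 library 3 (-0.22, adjusted p = 0.0412). The shRNA2 value passed in the 6 libraries alone (0.26, adjusted p = 0.000523), without shRNA3 library 3 (0.27, adjusted p = 0.0146) and without libraries 1 and 2 (0.28, adjusted p = 0.0193). The shRNA3 value passed with no filter (0.58, adjusted p = 0.045) and by DESeq2 (0.57, adjusted p = 0.0419). The shRNA3 value was -0.15 without libraries 1 and 2 and 0.83 without library 3 (adjusted p = 2.62e-06).

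**Figure D3:**
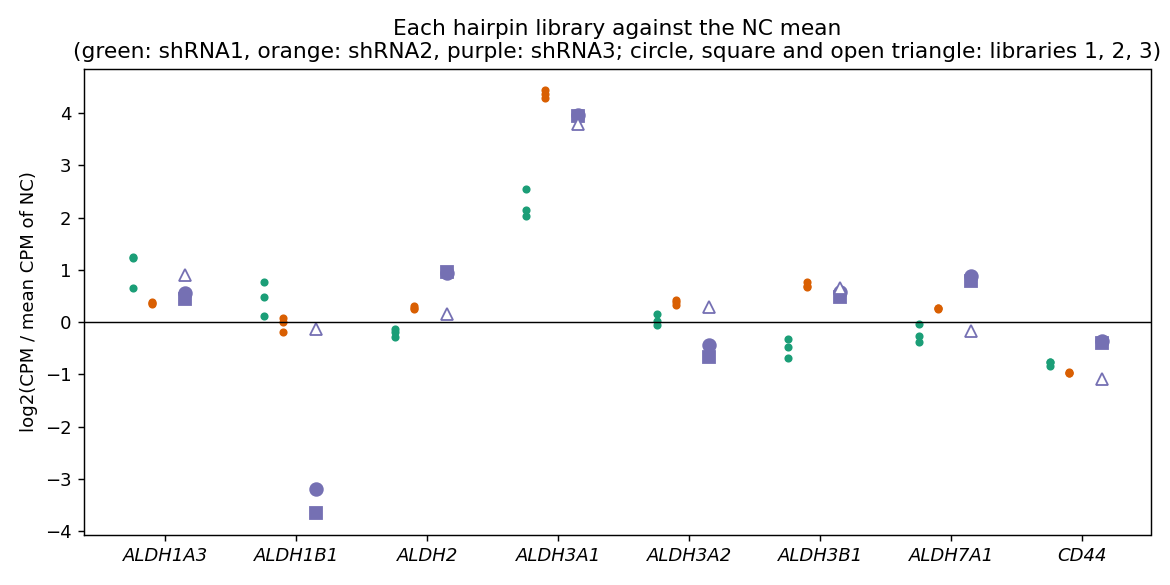
Log2 ratio of each hairpin library to the mean CPM of NC (vertical axis) for 8 genes (horizontal axis); green and orange points are the shRNA1 and shRNA2 libraries, purple circles and squares shRNA3 libraries 1 and 2, and open triangles shRNA3 library 3. Under TMM, library 3 lies apart from libraries 1 and 2 for ALDH1B1 (42.1 against 5.04 and 3.64 CPM), ALDH1A3, ALDH2, ALDH3A2, ALDH7A1 and CD44. It lies close to them for ALDH3A1 and ALDH3B1. With totals alone, ALDH3B1 is apart as well (44.1 against 30.3 and 29.1 CPM), and CD44 is 602 against 721 and 723 CPM.

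CD44 (ENSG00000026508, chromosome 11, 35138870 to 35232402, plus strand) was lower with every hairpin. NC libraries had 1240.0, 1129 and 1239 CPM, shRNA1 libraries 708, 667 and 711 CPM, shRNA2 libraries 619, 616 and 610.3 CPM, and shRNA3 libraries 935, 910.1 and 566.5 CPM. All 9 hairpin libraries were below the lowest NC library, and shRNA3 library 3 was the lowest of all. CD44 fell 1.73-fold with shRNA1 (log2 -0.79 ± 0.18, adjusted p = 0.00276), 1.96-fold with shRNA2 (-0.97 ± 0.18, adjusted p = 0.000806) and 1.50-fold with shRNA3 (-0.58 ± 0.18, adjusted p = 0.016). The shRNA1 and shRNA2 calls held in all 19 alternatives. Without libraries 1 and 2 the shRNA3 value was -1.06, and in the fit of the 6 NC and shRNA3 libraries alone it was -0.51 and did not pass (adjusted p = 0.162). The antisense gene CD44-AS1 overlaps CD44 on the opposite strand.

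To compare the genes with each other, CPM were divided by the length of the merged exons in kilobases. In NC the order was CD44 (120.3 ± 6.38 CPM per kb, SD), ALDH1A3 (26.9 ± 3.09), ALDH3A2 (17.3 ± 0.19), ALDH1B1 (14.6 ± 1.56), ALDH2 (10.0 ± 0.559), ALDH7A1 (6.94 ± 0.158), ALDH3B1 (3.98 ± 0.713), ALDH1A1 (1.08 ± 0.129), ALDH3A1 (0.727 ± 0.151) and ALDH1A2 (0.0176 ± 0.0155), and no 2 neighbours overlapped. CD44 and ALDH1A3 kept the first 2 places in every group. ALDH3A1 moved from place 9 in NC to 7 with shRNA1, where it overlapped ALDH3B1, and to 4 with shRNA2, where it overlapped ALDH1B1. With shRNA3 it took place 5, where it overlapped ALDH2, ALDH3A2, ALDH7A1 and ALDH1B1. In shRNA3 library 3 alone it took place 6 (10.1 CPM per kb), and CD44 and ALDH1A3 stood at 56.6 and 50.3 CPM per kb. ALDH1A1 moved to place 9 with shRNA1 and shRNA3 and 10 with shRNA2, where it overlapped ALDH1A2 in each case. The ratio of CD44 to ALDH1A3 per length thus narrowed from 120.3 against 26.9 in NC to 69.5 ± 2.44 against 56.4 ± 12.4 with shRNA1, 61.5 ± 0.435 against 34.6 ± 0.471 with shRNA2, and 80.4 ± 20.6 against 42.2 ± 7.25 with shRNA3. Merged exons include those of rare isoforms. By the length of the principal transcript ALDH7A1 would take place 4 in NC (25.1 CPM per kb), and ALDH3A1 and ALDH1A1 (1.48 and 1.46) would change places.

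Summed over the 9 aldehyde dehydrogenases, the level per length was 81.5 ± 2.87 CPM per kb in NC, 115 ± 15.1 with shRNA1, 113 ± 2.06 with shRNA2 and 106 ± 11.1 with shRNA3, and the ranges of the hairpin groups (98.2 to 126, 111 to 116 and 96.7 to 118) lay above the NC range of 79.6 to 84.8. For shRNA3 this held only under TMM: with totals alone its libraries had 79.8, 76.9 and 126 CPM per kb, against 87.8, 94.2 and 88.0 in NC. The shRNA1 and shRNA2 libraries stayed above NC (at least 101 CPM per kb). shRNA3 library 3 by itself had 118 CPM per kb under TMM. ALDH1A3 held 32.9% ± 3.28 of that sum in NC, 48.4% ± 4.81 with shRNA1, 30.5% ± 0.914 with shRNA2 and 39.5% ± 2.61 with shRNA3. ALDH3A1 went from 0.888% ± 0.153 in NC to 3.11% ± 1.06, 13.2% ± 0.672 and 10.4% ± 1.62. ALDH1A1 made up 1.32% ± 0.11 of the sum in NC and at most 0.0793% in any hairpin library. ALDH1B1 held 16.3% to 20.1% in NC and between 1.19% and 11.3% with shRNA3. In shRNA3 library 3 the shares were 42.5% for ALDH1A3, 8.53% for ALDH3A1 and 11.3% for ALDH1B1.

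**Figure D4:**
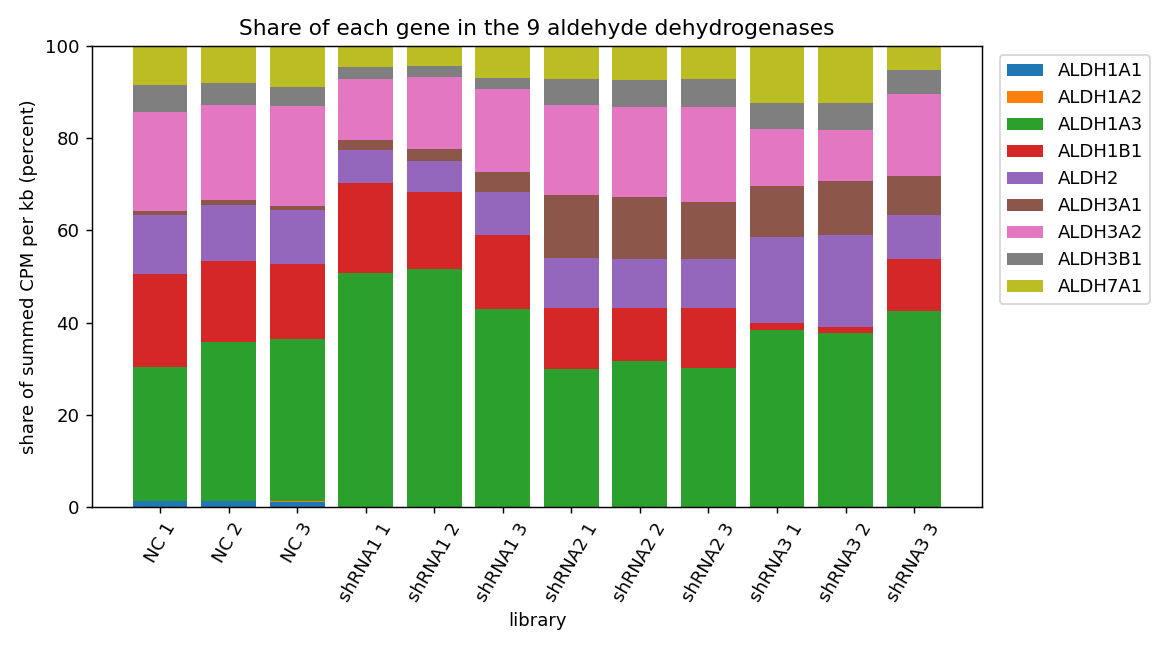
Share of each of the 9 aldehyde dehydrogenases in their summed level per length (vertical axis, percent of CPM per kb) in each library (horizontal axis). ALDH1A3 is the largest segment in all 12 libraries, the ALDH3A1 segment is 0.888% on average in NC and 13.2% with shRNA2, and the ALDH1B1 segment is thin in shRNA3 libraries 1 and 2.

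The hairpins were then compared with each other, a test in which NC plays no part in the difference. Between shRNA1 and shRNA2, 3 of the 9 genes were called (12.3% of all tested genes). ALDH3A1 was lower with shRNA1 than with shRNA2 by -2.10 ± 0.19 in log2 (adjusted p = 0.000229) and ALDH3B1 by -1.19 ± 0.16 (adjusted p = 0.00233), and both differences held in all 19 alternatives. ALDH1A3 was higher with shRNA1 by 0.70 ± 0.18 (adjusted p = 0.0302), a call that held in 11 of 19 alternatives. It was lost without NC library 3 (0.70, adjusted p = 0.0521), shRNA1 library 1 (0.61, adjusted p = 0.122) or 2 (0.60, adjusted p = 0.133), or shRNA2 library 1 (0.70, adjusted p = 0.11), 2 (0.71, adjusted p = 0.102) or 3 (0.69, adjusted p = 0.113).

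Between shRNA1 and shRNA3, 4 genes were called (30% of all tested genes), all lower with shRNA1. These were ALDH3A1 (-1.64 ± 0.18, adjusted p = 0.00152), ALDH3B1 (-1.06 ± 0.16, adjusted p = 0.00346), ALDH2 (-0.93 ± 0.19, adjusted p = 0.00773) and ALDH7A1 (-0.79 ± 0.22, adjusted p = 0.0246). Without shRNA3 libraries 1 and 2 the differences were -1.55 for ALDH3A1, -1.16 for ALDH3B1, -0.37 for ALDH2 and -0.06 for ALDH7A1. The ALDH7A1 call was lost without shRNA1 library 1 (-0.76, adjusted p = 0.0769) or 2 (-0.71, adjusted p = 0.0903), and without shRNA3 library 1 (-0.65, adjusted p = 0.0931) or 2 (-0.70, adjusted p = 0.0876) alone. In a fit of the 6 libraries alone none of the 4 passed (adjusted p = 0.117 to 0.157), and 0% of all genes did.

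Between shRNA2 and shRNA3, 0 of the 9 were called by edgeR (8.34% of all tested genes), 4 had an unadjusted p under 0.05 (31.9% of all tested genes), and DESeq2 called 1, ALDH3A2 (0.57, adjusted p = 0.0392). CD44 was called in no pair of hairpins: its differences were 0.18 (95% interval -0.23 to 0.59) between shRNA1 and shRNA2, -0.21 (-0.62 to 0.20) between shRNA1 and shRNA3, and -0.39 (-0.80 to 0.02) between shRNA2 and shRNA3. ALDH1A1 was likewise called in none, with wide intervals (-1.0 to 3.49, -2.70 to 0.88 and -4.28 to -0.03) from counts of 0 to 4. Without shRNA3 library 3, CD44 did differ, by -0.40 between shRNA1 and shRNA3 (adjusted p = 0.000447) and by -0.57 between shRNA2 and shRNA3 (adjusted p = 1.83e-05), and ALDH3A1 was higher with shRNA2 than with shRNA3 by 0.42 (adjusted p = 0.0286). Without shRNA3 libraries 1 and 2 both CD44 differences changed sign, to 0.28 and 0.11, and the former was 0.08 with totals alone (adjusted p = 0.539).

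Of 10 further members of the aldehyde dehydrogenase family, all tested, 6 fell with each hairpin, while 30.6%, 28.4% and 27.6% of all genes fell. With shRNA1 2 rose, and with shRNA2 and shRNA3 3 rose, against 26.8%, 24.6% and 26.4% of all genes. The median log2 fold changes were -3.13, -2.35 and -1.84, against -0.02, -0.05 and -0.03 over all tested genes. ALDH1L1, ALDH1L2 and ALDH3B2 passed the filter on low counts only through NC, the group where they are high. They stand in these counts and medians, but their being called lower is no separate support. ALDH1L2, the mitochondrial formyltetrahydrofolate dehydrogenase, went from 26.3 ± 5.77 CPM in NC to 0.414 ± 0.103, 0.151 ± 0.117 and 0.436 ± 0.312 CPM (log2 -5.96, -7.38 and -5.81, adjusted p = 2.49e-06, 1.36e-06 and 3.33e-06). Its cytosolic relative ALDH1L1 had 56 counts over the NC libraries and 1, 6 and 3 over those of shRNA1, shRNA2 and shRNA3. ALDH3B2, a close relative of ALDH3B1 with which it may share reads that the counting could split, had 163 NC counts and 0, 5 and 2 counts, so that it was at least 18.2-fold lower with shRNA1, taking 3 counts per library as the floor, and 28.8 times (12.1 to 89.9) and 64.5 times (17.6 to 536.8) lower with the others. ALDH5A1, succinic semialdehyde dehydrogenase of GABA breakdown, went from 16.1 ± 2.07 CPM to 0.963 ± 0.163, 2.30 ± 0.483 and 1.69 ± 0.734 CPM. ALDH9A1, of carnitine synthesis, and ALDH18A1, of proline synthesis, were the 2 that rose with all 3 hairpins and were chosen after their values were seen: ALDH9A1 was 60.1 ± 1.14 CPM in NC and 93.3, 88.1 and 101.0 CPM with the hairpins, and ALDH18A1 114 ± 8.93 CPM against 174, 163 and 156 CPM. With totals alone in place of TMM the rising members were 1, 2 and 2, while 3873, 3414 and 3214 of all 17532 tested genes rose. Without shRNA3 libraries 1 and 2 the shRNA3 median was -2.34.

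In the retinoid pathway, 16 of 23 listed genes were tested, and 6 rose and 4 fell with shRNA1, 6 rose and 3 fell with shRNA2, and 8 rose and 3 fell with shRNA3. Over all tested genes, 26.8%, 24.6% and 26.4% rose and 30.6%, 28.4% and 27.6% fell. The list medians were 0.08, 0.33 and 0.62. With totals alone the first median was -0.01 and the others stayed above 0. Without shRNA3 libraries 1 and 2, the shRNA3 median was 0.29 over 18 tested genes. STRA6 and LRAT, named by the size of their smallest change, both handle retinol. STRA6, the membrane receptor that takes up retinol, had at most 3 counts in any NC library (0.0998 ± 0.0865 CPM) and 23.5 ± 4.17, 32.4 ± 0.712 and 42.7 ± 3.45 CPM with the hairpins in turn (adjusted p = 1.76e-07, 1.04e-07 and 8.31e-08). LRAT, which esterifies retinol for storage, had 6.04 ± 0.473 CPM in NC, 0 counts with shRNA1 and shRNA2, at least 40.3-fold and 35.5-fold lower, and 1 count with shRNA3. STRA6 passed the filter on low counts only through the hairpin groups and LRAT only through NC. Each is high in the groups it passed through, so their tests, and their places in the list counts, are no separate support. Of 7 alcohol dehydrogenases, some of which can oxidise retinol, ADH5 alone was tested, and its part in retinol oxidation here was not tested. ADH5 rose from 65.6 ± 0.794 CPM to 117 ± 2.01, 110.2 ± 2.13 and 102 ± 9.86 CPM (log2 0.84, 0.75 and 0.64, adjusted p = 5.66e-05, 0.000141 and 0.000425), a rise that was not called with shRNA3 under totals alone.

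Among hyaluronan genes and partners of CD44, 16 of 20 were tested, and 6 rose and 6 fell with shRNA1, 6 rose and 5 fell with shRNA2, and 7 rose and 5 fell with shRNA3. Over all tested genes, 26.8%, 24.6% and 26.4% rose and 30.6%, 28.4% and 27.6% fell. The list medians were 0.33, 0.55 and 0.30, and with totals alone the shRNA3 median was -0.08. Without shRNA3 libraries 1 and 2, the shRNA3 median was 0.03 over 17 tested genes, and the shRNA1 median turned to -0.15. HAS3, a hyaluronan synthase, rose from 10.5 ± 0.632 CPM to 89.6 ± 25.3, 81.6 ± 4.97 and 119 ± 43.0 CPM (log2 3.09, 2.95 and 3.49, adjusted p = 6.19e-06, 8.26e-06 and 3.25e-06). CD74, the invariant chain, which pairs with CD44 as a receptor for the cytokine MIF, fell from 700.0 ± 36.9 CPM to 0.547 ± 0.0723, 0.304 ± 0.175 and 0.729 ± 0.374 CPM (log2 -10.30, -11.14 and -9.86, adjusted p = 2.8e-08, 1.73e-08 and 2.4e-08). Versican (VCAN), a matrix proteoglycan that binds hyaluronan, had 92 counts over the NC libraries and 16, 0 and 1 over those of the hairpins. VCAN passed the filter on low counts only through NC, so its place among the genes that fell is no separate support. CD74 is also made by leukocytes: of the leukocyte markers, CD14 was 4.17 CPM in NC and 0.808, 1.85 and 0.764 CPM with the hairpins (called lower with all 3), CD68 was 63.1 CPM against 75.5, 82.3 and 191 CPM, and PTPRC was at 0 in NC. Their part in the fall of CD74 was not tested.

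Of 14 genes of CD44 cleavage and splicing, all tested, 3 rose and 4 fell with shRNA1, 4 rose and 6 fell with shRNA2, and 4 rose and 4 fell with shRNA3, with medians of -0.17, -0.27 and -0.09. Over all tested genes, 26.8%, 24.6% and 26.4% rose and 30.6%, 28.4% and 27.6% fell. With shRNA3, 7 fell with totals alone, a scaling under which 5945 of all 17532 tested genes fell. The shRNA3 median was -0.33 without libraries 1 and 2. MMP14, a membrane metalloproteinase that cleaves CD44, fell from 419 ± 52.8 CPM to 0.581 ± 0.120, 0.771 ± 0.425 and 2.10 ± 1.40 CPM (log2 -9.48, -9.07 and -7.70, adjusted p = 4.35e-07, 4.74e-07 and 9.17e-07). ESRP1, the epithelial splicing factor that favours CD44 variant exons, fell from 88.0 ± 6.84 CPM to 15.8 ± 2.58, 33.8 ± 1.80 and 35.4 ± 4.93 CPM. SRSF1, a general splicing factor, rose from 63.1 ± 13.1 CPM to 306 ± 144, 370.5 ± 4.5 and 187 ± 73.4 CPM.

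Of 14 stem cell markers used in oral carcinoma, 11 were tested, and 4 rose and 4 fell with shRNA1, 5 rose and 4 fell with shRNA2, and 6 rose and 3 fell with shRNA3, with medians of 0.21, 0.53 and 0.55 (0.13, 0.40 and 0.26 with totals alone). Over all tested genes, 26.8%, 24.6% and 26.4% rose and 30.6%, 28.4% and 27.6% fell. Without libraries 1 and 2, the shRNA3 median was 0.44. ABCG2, a drug efflux transporter, rose from 1.89 ± 0.545 CPM to 24.8 ± 2.74, 44.3 ± 3.03 and 21.0 ± 15.8 CPM. CD24 fell from 33.3 ± 2.61 CPM to 5.18 ± 1.30, 3.84 ± 0.701 and 4.78 ± 0.627 CPM. Podoplanin (PDPN) had 34.4 ± 2.43 CPM in NC and 0 counts in all 9 hairpin libraries, so that it was at least 230-fold, 202-fold and 175-fold lower in those groups. PDPN passed the filter on low counts only through NC, so its place among the genes that fell is no separate support. Markers of this list thus moved in both directions while CD44 and ALDH1A1 were lower. The genes named from these lists all kept their direction with shRNA3 when its libraries 1 and 2 were left out.

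**Figure D5:**
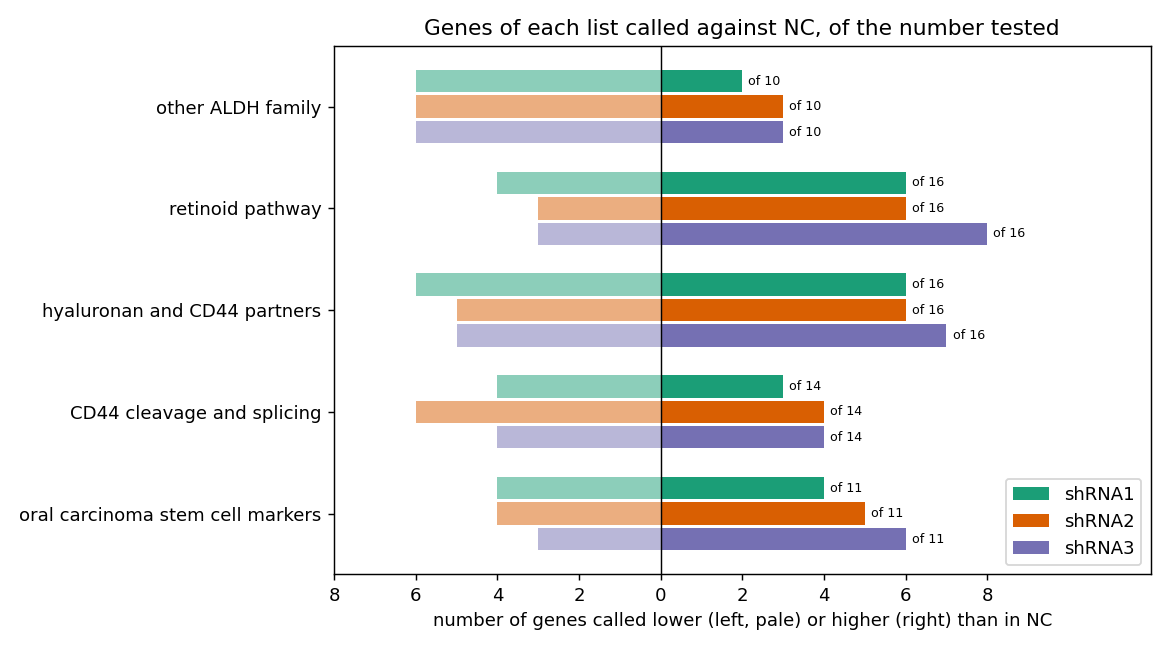
Number of genes called lower (left, pale bars) or higher (right, full bars) than in NC for each hairpin (colours), for 5 lists; the number tested stands beside each bar. In the list of other aldehyde dehydrogenases 6 of 10 are lower with each hairpin, and in the other lists calls stand on both sides. Among the 6, ALDH1L1, ALDH1L2 and ALDH3B2 passed the filter on low counts only through NC. Of the genes named from the other lists, LRAT, VCAN and PDPN did so too, and STRA6 passed it only through the hairpin groups. Of all tested genes, 30.6%, 28.4% and 27.6% are lower and 26.8%, 24.6% and 26.4% higher with shRNA1, shRNA2 and shRNA3.

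The genes whose pattern over the 12 libraries was most like that of CD44, by the root mean square difference of centred log2(CPM + 1) among 10183 genes with a mean of at least 10 CPM, were KLHL7 (0.0864), CERS5 (0.0871) and ASB1 (0.0877). KLHL7 had 80.7, 44.3, 40.9 and 57.2 CPM on average in NC, shRNA1, shRNA2 and shRNA3. For ALDH1A3 they were GAK (0.107), NOB1 (0.112) and the retinol dehydrogenase RDH13 (0.113), which had 17.2, 39.7, 21.5 and 25.1 CPM in the same order.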

How the data were processed

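Per the labels' protocols, total RNA of 12 samples was made into libraries with a NEBNext Ultra kit; any selection of the RNA is not given in the sources used here. The authors deposited 1 table of estimated counts per gene, in which 13.8% of values are not whole. GRCh38, HISAT2 and HTSeq 0.11.2 are named in the submitters' processing notes; which program gave values that are not whole is not stated. IDs that are not Ensembl IDs (380) held at most 0.22% of a library's counts.

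Counts were rounded. Genes were filtered with edgeR's filterByExpr (minimum count 10, minimum total 15), scaled by TMM and fitted in R 4.3.3 with the robust quasi-likelihood method of edgeR 4.0.16 (two-sided) in 1 model of 4 groups with 8 residual degrees of freedom, with Benjamini-Hochberg adjustment over 17532 genes and a threshold of 0.05. The common biological coefficient of variation was 0.289. Standard errors are the log2 fold change divided by the root of F, and 95% intervals use the residual degrees of freedom. CPM are TMM-scaled. A floor of 3 counts per library was used for genes at 0, and intervals of count ratios are exact binomial (Clopper-Pearson); both cover counting error only. Levels per length are CPM per kb of GENCODE release 29 merged exons; they were not rescaled to a common sum as first planned, because that sum moved with short genes. Alternatives were DESeq2 size factors, no filter, DESeq2 1.42.0, the 6 libraries of a comparison alone, a replicate block, a log2 change of at least 1, each library left out, shRNA3 libraries 1 and 2 left out, a pseudocount of 0.1 and, added after seeing the data, library totals alone and the lists under other settings. The scripts were tested on simulated data.

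The genes described and the lists were chosen with earlier results of these data known. From each list, at most 3 genes (4 from the dehydrogenase family) were named: of those called in 1 direction with all 3 hairpins and without overlap with NC, the ones whose smallest change was largest. The genes most like CD44 and ALDH1A3 (the dehydrogenase with the highest mean CPM) were ranked over the 12 libraries. Some items are not reported here.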

Additional observations from a re-analysis of the deposited data

Results flagged for a closer look

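The hairpins are meant to act on 1 gene, and 5 of the genes described differed in at least 1 pair of them by edgeR's quasi-likelihood test of the difference itself. The share of all genes called in at least 1 pair was not computed, so the 5 cannot be set against it. Of all tested genes, 12.3% were called between shRNA1 and shRNA2, 30% between shRNA1 and shRNA3 and 8.34% between shRNA2 and shRNA3. Between shRNA1 and shRNA2 the log2 differences were 0.7034 for ALDH1A3 (adjusted p = 0.0302), -2.1034 for ALDH3A1 (adjusted p = 0.000229) and -1.1923 for ALDH3B1 (adjusted p = 0.00233). Between shRNA1 and shRNA3 they were -0.9313 for ALDH2 (adjusted p = 0.00773), -1.642 for ALDH3A1 (adjusted p = 0.00152), -1.0563 for ALDH3B1 (adjusted p = 0.00346) and -0.791 for ALDH7A1 (adjusted p = 0.0246). ALDH3B1 was on opposite sides of NC, called lower with shRNA1 and called higher with the other hairpins. Its shRNA1 call held in 14 of 19 alternatives, and its shRNA3 call was lost with totals alone and without NC library 3. Without shRNA3 libraries 1 and 2 the ALDH2 and ALDH7A1 differences were -0.37 and -0.06. The ALDH1A3 difference was called in 11 of 19 alternatives, and not with a replicate block (adjusted p = 0.0611) or totals alone (adjusted p = 0.066). In the fit of the 6 libraries none of the 4 differences between shRNA1 and shRNA3 was called, and 0% of all genes were.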

How the results depend on the processing

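Numbers of called genes among the 10, in the order shRNA1, shRNA2 and shRNA3 against NC, then shRNA1 against shRNA2, shRNA1 against shRNA3 and shRNA2 against shRNA3, were 5, 4, 6, 3, 4 and 0. In the same order, 57.4%, 53%, 53.9%, 12.3%, 30% and 8.34% of all tested genes were called. Where calls also had to reach 1 in log2, 3, 2 and 2 were called against NC and 2 between shRNA1 and shRNA3. The share of all genes under that rule was not computed, so these counts cannot be set against it. In fits of the 6 libraries compared, 8 were called with shRNA2 (79.2% of all genes), 7 between shRNA1 and shRNA2 (41%) and 0 between shRNA1 and shRNA3 (0%). DESeq2 called 1 between shRNA2 and shRNA3 (22.4%). With each library left out in turn, the ranges were 4 to 8, 4 to 8, 5 to 9, 2 to 7, 3 to 8 and 0 to 6; the highest of each came without shRNA3 replicate 3 (73.1%, 70.2%, 73.1%, 39.7%, 63.4% and 59.2% of all genes). Same-numbered libraries did not deviate together (mean correlation -0.00267 over 18 pairs, none over 0.1). With a replicate block 5, 4, 6, 2, 4 and 0 were called (55.3%, 51%, 52%, 8.54%, 25.4% and 2.16% of all genes). The 1 call lost was ALDH1A3 between shRNA1 and shRNA2 (0.70, adjusted p = 0.0611).

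Each value that changed sign was one not called in the report. ALDH3A2 with shRNA1 was -0.0439 with totals alone, and -0.0053 to 0.0989 with 1 library left out; ALDH1B1 with shRNA2 was 0.0072 with no filter, and -0.1136 to 0.0474 with 1 library left out; ALDH3A2 with shRNA3 was -0.556 to 0.0151 in the same way. Without shRNA3 libraries 1 and 2, values against NC with shRNA3 became 0.3069 for ALDH3A2 and -0.1533 for ALDH7A1. Between shRNA1 and shRNA3 they became -0.2523 for ALDH3A2 and 0.28 for CD44, and CD44 was 0.0842 with totals alone. Between shRNA2 and shRNA3 they became 0.1148 for ALDH2, 0.4287 for ALDH7A1 and 0.1059 for CD44. The cause was not tested. Few counts limit ALDH1A2 in all groups and ALDH1A1 with the hairpins.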
